A study of Mus musculus with 2 samples.

Results

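The mir-191 and mir-425 cluster consists of the mouse hairpins mir-191 and mir-425, and its 4 mature arms, miR-191-5p, miR-191-3p, miR-425-5p and miR-425-3p, are described here in Th17 and Th0 helper T cells. The arms were taken by name from the tables of mature miRNAs, but the cluster was chosen with earlier results of these data known. All 4 of the 4 were present in both libraries, out of 1125 miRNAs listed in at least 1 of them. Naive CD4+CD62L+ T cells from the spleen of female C57BL/6 mice were cultured in RPMI medium with 10% serum. The Th17 cultures received anti-CD28 (1 µg/ml), blocking antibodies to IL-4, IFN-γ, IL-2 and IL-12 (each 5 µg/ml), TGF-β (2 ng/ml), IL-6 (40 ng/ml), IL-1β (10 ng/ml) and IL-23 (40 ng/ml), and were kept for 6 to 7 days. The Th0 cultures, the control, received anti-CD28 (1 µg/ml) and the antibodies to IL-4 and IFN-γ (each 5 µg/ml), so both groups share these agents, and no length is stated for the control culture. Culture time and the Th17 conditions therefore cannot be told apart. The labels speak of triplicates, but 1 column of reads per group is analysed here, so no result below could be tested against the spread between cultures and no p-value is given.

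A miRNA hairpin is cut into a duplex of a 5p and a 3p arm, of which usually 1, the guide, is loaded into an Argonaute protein and kept, while the other, the passenger, is mostly degraded. The guide finds messenger RNAs mainly through its seed, the bases 2 to 8 from its 5′ end. Hairpins that lie close together on 1 strand are often processed from a common primary transcript. In mouse T cells miR-191 has been reported to support survival after cytokine signalling, and miR-425 has been reported to promote Th17 cells. Both 3p arms are passengers by their read numbers here, and no role in T cells is stated for them.

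The mature sequences (RefSeq, GRCm38.p6, plus strand of chromosome 9) are shown first because they tell whether the members share a seed. They are written 5′ to 3′ with the seed in capitals:
miR-191-5p: cAACGGAAucccaaaagcagcug
miR-191-3p: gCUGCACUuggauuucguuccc
miR-425-5p: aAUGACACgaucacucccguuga
miR-425-3p: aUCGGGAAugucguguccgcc

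The 4 seeds differed from each other, so the cluster holds 4 seed groups of 1 member each. Among all mature mouse miRNAs of the table, the seeds of miR-191-5p, miR-191-3p and miR-425-3p belonged to no other miRNA. The seed of miR-425-5p was shared with 1 other, miR-489-3p of chromosome 6, which is given to show that the likeness ends after the seed:
miR-489-3p: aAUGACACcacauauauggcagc

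miR-489-3p had no row in either library and counts as 0 reads, which allows up to 0.251 CPM (reads per 1000000 listed miRNA reads) in Th17 and 0.359 CPM in Th0. Among the listed miRNAs with a sequence in the table, miR-425-5p was thus the only one with this seed. Against 1678 other mature sequences, the nearest to miR-191-5p and to miR-425-5p was 8 edits (substitutions, insertions or deletions) away, and the nearest to miR-191-3p and to miR-425-3p was 7 edits away. Within that table no member has a near-identical copy with which its reads could be confused, and each is listed in the tables under a single hairpin. The arms are 23 bases long for both 5p arms, 22 for miR-191-3p and 21 for miR-425-3p, and their share of G and C ran from 47.8% in miR-425-5p to 61.9% in miR-425-3p.

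The hairpins show where each arm lies, with the 2 arms in capitals, 19 bases apart in Mir191 and 18 bases apart in Mir425:
Mir191: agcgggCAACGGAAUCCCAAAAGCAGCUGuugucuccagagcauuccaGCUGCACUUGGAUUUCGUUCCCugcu
Mir425: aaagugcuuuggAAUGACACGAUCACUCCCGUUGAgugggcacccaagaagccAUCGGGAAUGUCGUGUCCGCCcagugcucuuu

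Mir191 lies at chr9:108568319-108568392 and Mir425 at chr9:108568777-108568861, both on the plus strand of GRCm38 (mm10), with 384 bases between them. The cluster is commonly described as lying within Dalrd3, a gene whose product acts in tRNA modification in human cells. In GENCODE M21, however, Dalrd3 starts at 108569886, which is 1024 bases beyond the end of Mir425, and no Dalrd3 transcript overlaps either hairpin. The annotated gene around both hairpins is the long noncoding RNA 4833445I07Rik (chr9:108567533-108569174, plus strand). Its single-exon transcript holds Mir191 and Mir425 within the exon, and its transcript of 2 exons holds Mir191 within the intron. On the opposite strand the annotation has a miRNA gene, Gm24083 (chr9:108568295-108568414), that overlaps Mir191 in antisense. Whether the authors' counting used the strand is not stated, and the tables list no miRNA for it by that name.

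**Figure D1:**
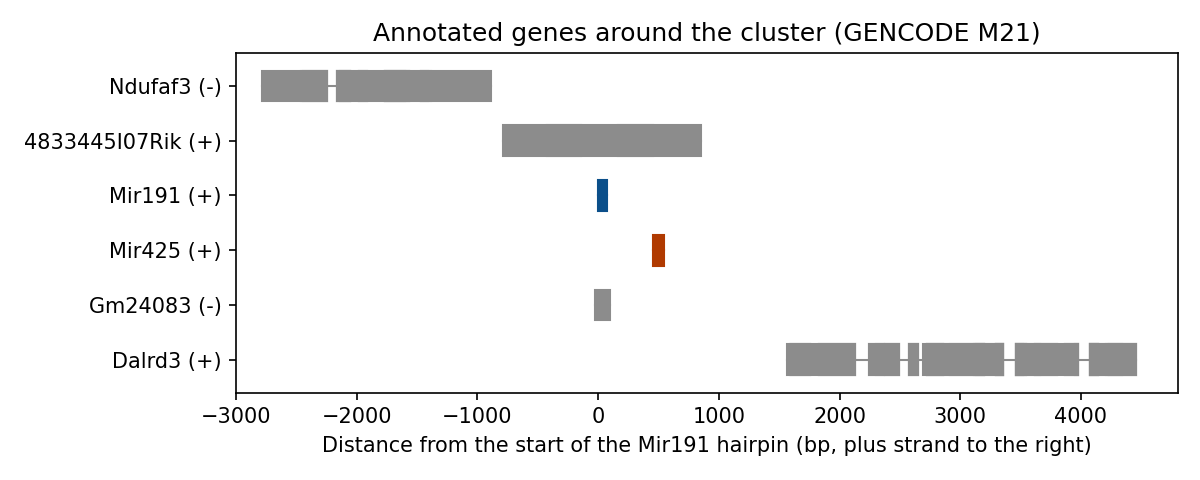
Annotated genes around the cluster, by distance in bp from the start of the Mir191 hairpin; boxes are exons joined over all transcripts of a gene, lines are introns, and the strand stands in brackets. Both hairpins lie inside 4833445I07Rik and before the start of Dalrd3, 1024 bases beyond Mir425.

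The libraries differed in depth, with 11975371 listed reads of 1012 miRNAs in Th17 and 8358010 listed reads of 986 miRNAs in Th0. Levels below are in CPM, so 1 read was worth 0.0835 CPM in Th17 and 0.120 CPM in Th0. Of the miRNA marker lists, all 5 T cell or lymphocyte members were above 10 CPM, with a summed level of 133180 CPM in Th17 and 95953 CPM in Th0. Of these 5, 4 had counting intervals above 0 for the ratio of Th17 over Th0 and 1 below, miR-142a-3p, at 1153 CPM in Th17 and 2194 CPM in Th0. Markers of other cells were low beside the T cell list but differed. The 2 endothelial markers summed to 85.9 CPM in Th17 and 191 CPM in Th0. The 6 epithelial markers summed to 208 CPM in Th17 and 387 CPM in Th0. Of the 5 epithelial markers above 10 CPM, 4 had counting intervals below 0 and 1 above. The 1 above was miR-200c-3p, at 31.7 CPM in Th17 and 23.1 CPM in Th0. The myeloid marker miR-223-3p stood at 6.76 CPM in Th17 and 3.35 CPM in Th0. The 3 erythroid markers summed to 3.51 CPM in Th17 and 0.838 CPM in Th0. Of the 5 markers of liver, muscle or nerve, miR-1a-3p was at 0 in both libraries, and the list summed to 1.25 CPM in Th17 and 0.239 CPM in Th0. The part of these cells in the ratios below was not tested.

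The cluster was present at almost the same level in Th17 and Th0 cells, and nearly all of it was the guide of mir-191. miR-191-5p had 818853 reads (68378 CPM) in Th17 and 614891 reads (73569 CPM) in Th0, and it ranked 4 among all miRNAs in each library. miR-425-5p, the guide reported to promote Th17 cells, had 33722 reads (2816 CPM) in Th17 and 24479 reads (2929 CPM) in Th0. It ranked 35 in Th17 and 37 in Th0. The passengers were far less abundant. miR-191-3p had 873 reads (72.9 CPM) in Th17 and 627 reads (75.0 CPM) in Th0, and miR-425-3p had 729 reads (60.9 CPM) in Th17 and 667 reads (79.8 CPM) in Th0. All 4 arms had a lower CPM in Th17, by amounts that are small for 3 of them. With DESeq2 size factors in place of CPM the ratios of miR-425-5p and miR-191-3p were slightly above 0, with counting intervals that span 0. In the TPM values the authors deposited, which divide the same reads by a larger total, miR-191-5p stood at 62648 in Th17 and 67772 in Th0, and miR-425-5p at 2580 in Th17 and 2698 in Th0.

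**Figure D2:**
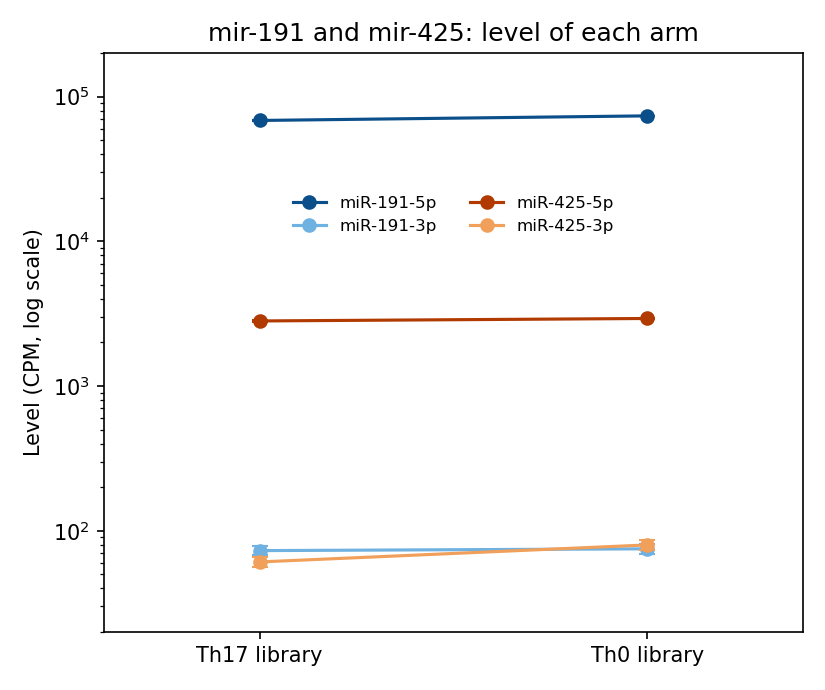
Level of each arm in CPM (log scale) in the Th17 and Th0 libraries, with 95% exact binomial intervals of counting error, most of them smaller than the points; lines join the same arm. The guides lie at 68378 and 2816 CPM in Th17, and the passengers near each other at 72.9 and 60.9 CPM.

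The question of the study's design is how far each member differs between Th17 and Th0 cells. miR-191-5p was 1.076-fold lower in Th17, a log2 ratio of Th17 over Th0 of -0.11 (95% counting interval -0.110 to -0.101). miR-425-5p was 1.040-fold lower, a log2 ratio of -0.057 (-0.080 to -0.033). With DESeq2 size factors its log2 ratio was 0.022 (-0.0022 to 0.045), an interval that spans 0. miR-191-3p had a log2 ratio of -0.041 (-0.19 to 0.11), an interval that spans 0 and that runs from 1.14-fold lower to 1.08-fold higher. Its ratio with DESeq2 size factors was 0.037 (-0.11 to 0.19), which also spans 0. miR-425-3p differed most, 1.31-fold lower in Th17, a log2 ratio of -0.39 (-0.54 to -0.24). It was the member whose ratio and whole interval stayed furthest below 0 under all 6 scalings of the libraries, from -0.45 without the 10 most abundant miRNAs of each library in the total to -0.31 with DESeq2 size factors. Amplified reads were counted without molecular identifiers and need not stand for separate molecules, so the intervals hold counting error alone.

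None of the 4 members was past 2-fold in either direction. Over the 298 miRNAs that averaged 10 CPM or more, 20 (6.71%) were past 2-fold on the higher side in Th17 and 39 (13.1%) on the lower side. The counting interval lay below 0 for 3 of the 4 members, the exception being miR-191-3p, and above 0 for 0 of them, beside 47.7% below and 40.6% above among the 298. Ratios within 1.1-fold of 1, a limit chosen with the members' values known, were found for 3 of the 4 members and for 43 of the 298 miRNAs (14.4%). These counts hold for CPM and were not made under other scalings. Without the 10 most abundant miRNAs in the total, miR-191-5p was at -0.16, which is past that limit. The median log2 ratio of the 298 was -0.080, with quartiles of -0.61 and 0.38. In that order 146 miRNAs had a lower ratio than miR-191-5p, 153 a lower ratio than miR-425-5p and 154 a lower ratio than miR-191-3p, so these 3 members stood in the middle of the distribution. miR-425-3p had 100 miRNAs below it, between the lower quartile and the median.

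**Figure D3:**
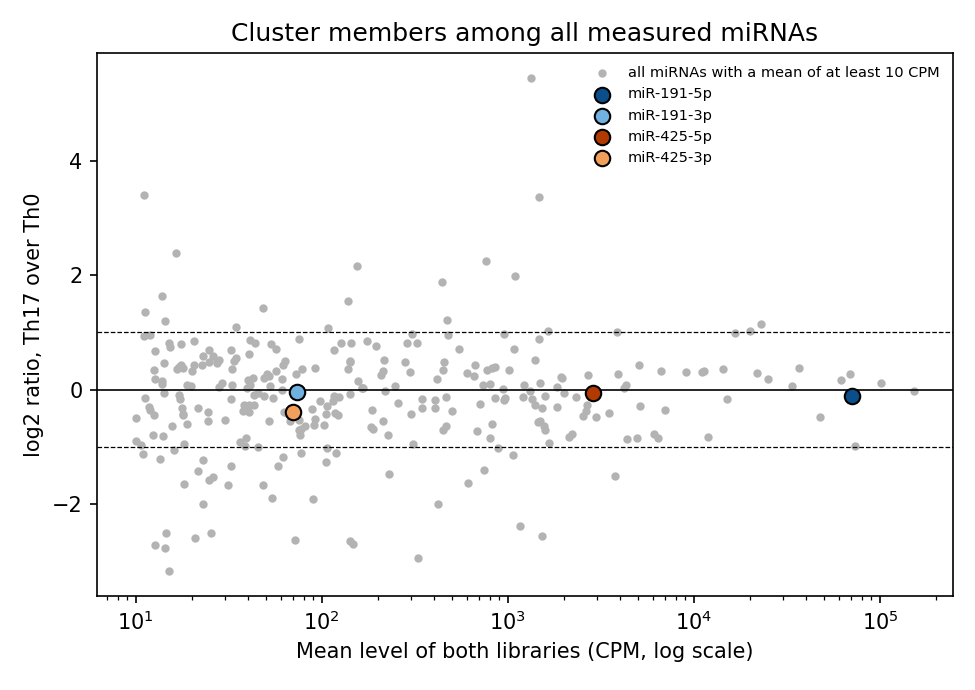
Log2 ratio of Th17 over Th0 against the mean level in CPM (log scale) for the 298 miRNAs that averaged 10 CPM or more; coloured points are the 4 members and dashed lines mark 2-fold. The members lie between -0.39 and -0.041, inside the dashed lines.

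The choice of scaling moved all ratios together, by 0.078 upward with DESeq2 size factors and by 0.057 downward when the 10 most abundant miRNAs of each library, 11 in all, were left out of the total. These shifts are as large as the log2 ratios of miR-425-5p and miR-191-3p. miR-191-5p stayed below 0 under the 6 scalings, from -0.16 to -0.027. Since it holds 6.84% of all listed reads in Th17 and 7.36% in Th0, its own reads enter the total by which it is divided, and without the 4 members in that total its log2 ratio was -0.11.

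**Figure D4:**
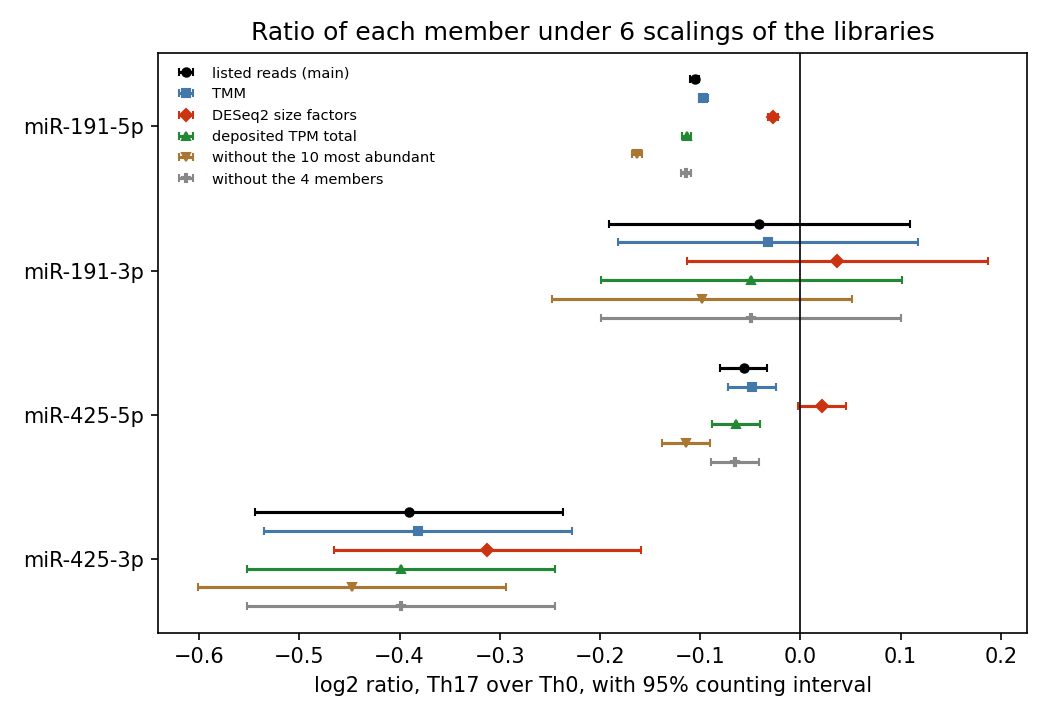
Log2 ratio of Th17 over Th0 for each member under 6 scalings of the libraries, with 95% counting intervals. miR-425-5p lies on both sides of 0 (-0.11 to 0.022), while miR-425-3p lies at or below -0.31 under every scaling shown.

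Summed over its 4 arms the cluster held 71328 CPM in Th17 and 76653 CPM in Th0, a log2 ratio of -0.10 (-0.109 to -0.099). miR-191-5p made up 95.9% of that sum in Th17 and 96.0% in Th0, so the sum repeats its ratio. The other 3 arms summed to 2950 CPM in Th17 and 3084 CPM in Th0, a log2 ratio of -0.064 (-0.087 to -0.041).

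The relation between the 2 hairpins can be read within each library and does not depend on the scaling. mir-191 gave 23.8 reads for each read of mir-425 in Th17 and 24.5 in Th0, both arms counted. The log2 change of mir-425 over mir-191 in Th17 relative to Th0 was 0.041 (0.017 to 0.065), a 1.03-fold shift toward mir-425. To place that value, neighbouring hairpins on 1 strand within 10000 bases were compared, each with at least 100 reads in each library and no mature arm shared with another hairpin in the tables or in RefSeq, counting the arms that RefSeq lists, which gave 24 pairs. The pair Mir191 and Mir425 had the smallest difference in log2 ratio of the 24, 0.041, where the median pair differed by 0.46 and the widest, Mir18 and Mir19a of the Mir17 cluster, by 1.69. The next smallest were Mir17 and Mir18 at 0.070 and Mir212 and Mir132 at 0.089. Some of the 24 pairs share a hairpin or a cluster, so they are not independent, and counting error widens the differences of pairs with few reads. Arms whose names did not match RefSeq were not counted, so some neighbouring hairpins may be missing and others are counted in part. Among the hairpins with at least 100 reads in each library, mir-23b, mir-27b, mir-130b and mir-301b entered no pair, and their differences were not compared. Mir532 entered with its 3p arm alone, at -0.39, although mir-532 had 14414 reads of 5p and 649 of 3p in Th17. The rank and the median therefore hold for these 24 pairs only. In the size of the gap between the read numbers of its 2 hairpins, the cluster ranked 3 of the 24. The hairpins thus stood far apart in level, and their ratios were close together.

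The passengers did not follow that relation. Of the reads of both 3p arms, miR-425-3p took 45.5% (exact binomial interval 43.0 to 48.0%) in Th17 and 51.5% (48.8 to 54.3%) in Th0. miR-191-3p was thus the more abundant passenger in Th17, with 1.20 reads for each read of miR-425-3p, while in Th0 it had 0.940. The log2 change of miR-425-3p over miR-191-3p was -0.35 (-0.56 to -0.14), whereas that of miR-425-5p over miR-191-5p was 0.049 (0.025 to 0.073), and these intervals lie on opposite sides of 0. They hold counting error alone, and such intervals excluded 0 for most of the 298 miRNAs (47.7% below and 40.6% above). Passengers of other neighbouring pairs were not compared, so how usual a change of this size is was not tested.

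The balance of arms was steady in mir-191 and differed slightly in mir-425. mir-191 gave 938 reads of its 5p arm for each read of its 3p arm in Th17 and 981 in Th0, which is a 3p share of 0.106% (0.0996 to 0.114%) in Th17 and 0.102% (0.0941 to 0.110%) in Th0. These intervals overlap. mir-425 gave 46.3 reads of 5p for each read of 3p in Th17 and 36.7 in Th0, a 3p share of 2.12% (1.97 to 2.27%) in Th17 and 2.65% (2.46 to 2.86%) in Th0. These intervals do not overlap, and the log2 change of 5p over 3p was 0.33 (0.18 to 0.49) for mir-425 and -0.064 (-0.21 to 0.084) for mir-191. Neither hairpin reached a difference of 10 percentage points in its 5p share, which 5 of 178 hairpins with at least 100 reads in each library did (2.81%). The 3p shares of both hairpins were so small that only a manifold rise of the passenger share could have reached this limit. No reading of their steadiness is therefore drawn from it. Among the 167 hairpins with reads of both arms in both libraries the median size of the log2 change was 0.41. The change of mir-425 was therefore below that median, and that of mir-191 was larger than in 9.04% of them. Counting error widens these changes in hairpins with few passenger reads. An example is mir-10b at 3.39, with 6 reads of 3p in Th17 and 1 in Th0. The median is thus no measure of the usual change at the read numbers of mir-425. By the share of its main arm mir-191 ranked 25 of the 178 hairpins in Th17 and 23 in Th0, and mir-425 ranked 101 in Th17 and 105 in Th0, where the median main arm took 98.6% in Th17 and 98.3% in Th0.

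**Figure D5:**
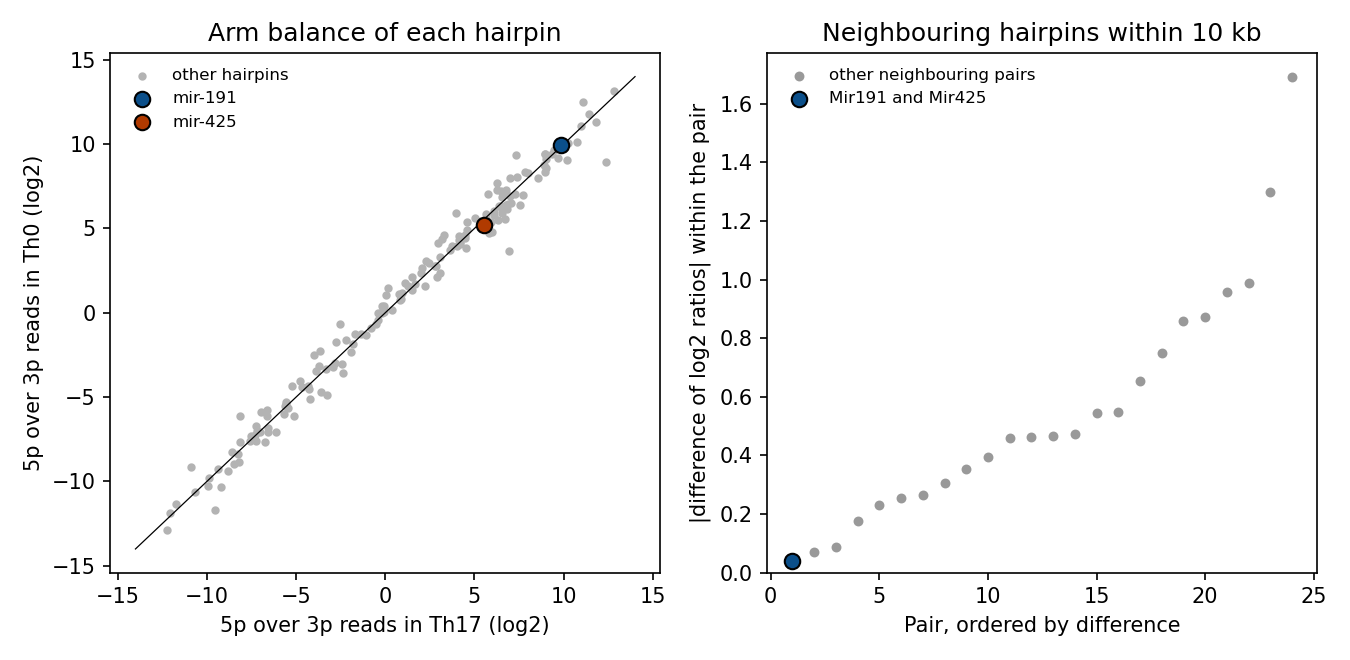
Left, log2 of 5p over 3p reads in Th17 (x axis) and Th0 (y axis) for the 167 hairpins with both arms in both libraries, with the line of equal values. Right, size of the difference in log2 ratio (Th17 over Th0) within each of 24 pairs of neighbouring hairpins, in rising order. mir-191 lies on the line and mir-425 slightly below it, and their pair has the smallest difference, 0.041.

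Other miRNAs of like level were searched for the nearest ratio, within 2-fold of the member's mean CPM and over the 2 libraries, which is too few to call a pattern shared. For miR-425-5p the nearest of 35 was miR-210-3p, a miRNA induced by hypoxia, with 1955 CPM in Th17 and 2043 CPM in Th0 and a log2 ratio of -0.063. With DESeq2 size factors that ratio was 0.015, with a counting interval that spans 0. let-7d-3p (-0.11) and miR-30b-5p (-0.12) came next. For miR-425-3p the nearest of 73 were miR-150-3p (-0.39), the passenger of mir-150, miR-532-3p (-0.39) and miR-345-5p (-0.39). For miR-191-3p the nearest of 78 were miR-324-5p (-0.060), miR-7a-1-3p (-0.015) and miR-339-3p (-0.074), all 3 with intervals that span 0 and ratios above 0 with DESeq2 size factors. miR-191-5p had 6 miRNAs of like level, and the nearest of them, miR-27b-3p, had 106160 CPM in Th17 and 97526 CPM in Th0, a log2 ratio of 0.12 on the other side of 0. miR-142a-5p (0.18) and miR-22-3p (0.27) were further away.

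Set among 11 miRNAs reported to promote Th17 cells, all above 10 CPM, miR-425-5p was the seventh from the top by log2 ratio, between miR-21a-5p at -0.026 (0.052 with DESeq2 size factors) and miR-301a-3p at -0.17. Of the 11, 1 was at least 2-fold higher in Th17 and 2 were at least 2-fold lower, 5 had intervals above 0 and 6 below, and the median of -0.026 lies beside -0.080 for all 298. The list ran from miR-155-5p at 1.15 and let-7e-5p at 0.81 to miR-17-5p at -1.15 and miR-19b-3p at -2.56. miR-425-5p, at -0.057, was thus among the members of this list with the smallest differences between the libraries.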

How the data were processed

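Small RNA of 1 Th17 and 1 Th0 sample was measured by sequencing of TruSeq small RNA libraries on an Illumina instrument, per the labels' protocols. For each library the authors deposited counts, whole reads per mature miRNA that are not normalized, and TPM values, which were tested on the files and are the same counts per 1000000 of 1 total (13070648 reads in Th17, 9072995 in Th0) that exceeds the listed reads. Per the submitters' processing notes, mm10 was the genome build. The aligner, the annotation release and the handling of reads with several matches are not stated.

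Counts were divided by the sum of listed reads (CPM), a missing row counting as 0. Ratio intervals are exact and conditional on both counts (Clopper-Pearson), and intervals of a ratio of ratios come from the log odds ratio. Alternatives used TMM (edgeR 4.0.16), DESeq2 1.42.0 size factors, the total behind the deposited TPM, and other totals, CPM minimums and added CPM values. The script was tested on simulated data that held counting error alone, which checks the arithmetic and not the spread between cultures. Named miRNAs are the members, the 3 nearest in ratio to each, miRNAs sharing a seed, and list members with the largest ratios or set beside a member; miR-21a-5p, miR-301a-3p, the markers named singly and the neighbouring pairs named were chosen after their values were seen. Members and lists were chosen with earlier results of these data known. Names of 935 of the 1125 miRNAs, all 4 members among them, matched the RefSeq sequence table. Conditions could not be tested, since each has 1 column of reads.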

Additional observations from a re-analysis of the deposited data

How the results depend on the processing

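Under the scalings the log2 ratio of miR-191-5p was -0.097 with TMM, -0.027 with DESeq2 size factors, -0.113 with the deposited TPM total, -0.163 without the 10 most abundant miRNAs and -0.114 without the 4 members in the total. The summed cluster was at -0.095, -0.026, -0.112, -0.161 and -0.112 in the same order, and at -0.064 without miR-191-5p. miR-425-5p was at 0.022 with DESeq2 size factors, with an interval that spans 0, and at -0.114 without the 10 most abundant miRNAs. With DESeq2 size factors miR-210-3p was at 0.015, also with an interval that spans 0, and miR-21a-5p at 0.052. These shifts follow from the totals themselves, which move all ratios alike. The direction of mir-425 over mir-191 was the opposite when the 3p arms were counted alone, at -0.349; the cause was not tested. Counts depended on the CPM minimum, which sets how many miRNAs enter. With no minimum 130 miRNAs (of 873 with reads in both libraries) were at least 2-fold higher and 150 at least 2-fold lower, and at 100 CPM these were 13 and 15 of 158. At least 1000 reads per hairpin left 2 hairpins with an arm shift. The ratios of miR-191-3p and miR-425-3p stayed within their counting intervals under the 7 alternatives run for each, and adding 0.5 or 1 CPM moved no member outside its interval. No paired analysis was possible because each group has 1 column of reads. Depth limits the 3p arms, with 627 to 873 reads each, where differences of about 1.1-fold were not detectable.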
